A study of Mus musculus with 32 samples.

Results

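The chromatin that opened or closed between the late 1-cell and the early 2-cell stage in embryos treated with A-485 was described from 20806 regions of open chromatin, of 58713 regions in all 4 ATAC-seq lists of the series. The members were chosen by list alone: 13712 regions were called at early 2-cell and 7094 at late 1-cell under A-485, after lines with the same position were joined. An early 2-cell region that shared at least 1 bp with a late 1-cell region was counted as open at both stages, any other early 2-cell region as newly opened, and a late 1-cell region with no early 2-cell partner as closed. "Closed" and "no peak" mean that a region was not in the list at the reproducibility threshold of the authors, not that its signal was 0. Each list was called over 2 pooled replicates and holds no counts per replicate, so shares of regions are given with 95% Wilson intervals that cover counting only, and no test of the peaks is given.

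The study followed wild-type mouse embryos from crosses of B6D2F1/J females with B6D2F1/J males, with animals 6 to 8 weeks old. The protocol gives 1 window of culture in 10 µM A-485, from 4 to 20 hours after insemination (hpi), for both stages, with its solvent DMSO as control, and how long the 1-cell embryos had been exposed when they were taken is not stated. Open chromatin was measured by ATAC-seq at the late 1-cell and early 2-cell stage, and total RNA was measured by RNA-seq in embryos labelled zygote and early 2-cell, each with 2 replicates per stage and treatment. Every library came from a pool of embryos, so a change in a part of the embryos and a change in each embryo cannot be told apart, and the labels do not say that "late 1-cell" and "zygote" embryos were taken at the same hour.

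CBP and p300 are related acetyltransferases that place the acetyl group on lysine 27 of histone H3 (H3K27ac), a mark of active promoters and enhancers, and A-485 is a small molecule that blocks their catalytic activity. After fertilization, both parental genomes are at first nearly silent, and transcription starts in a minor wave in the zygote and early 2-cell embryo and a major wave in the later 2-cell embryo, together called zygotic genome activation (ZGA). ATAC-seq uses a transposase that cuts accessible DNA, so its peaks mark promoters, enhancers and sites where a protein such as Ctcf keeps nucleosomes away.

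The DNA under the regions that the results turn on is shown first, as 300 bases around the highest point of a peak, on the + strand of GRCm38. Capitals mark matches, on either strand, of 1 motif for each region. The first 4 are regions of high fold enrichment in their class that hold the motif. Any window that shares 25-base words with the mitochondrial genome was left out. Zfp960 is a zinc finger gene promoter open at both stages, with the NF-Y box CCAATCA (chr17:17063838-17064137). It is not the highest of its class: the promoter of the pseudogene Gm13241, with the same box, had 22.6 at early 2-cell, above 20.9 at Zfp960. Med13 is a promoter newly opened under A-485, with the Sp box GGGCGG (chr11:86358203-86358502). The distal regions nearest to Mab21l3, newly opened, and Cops8, closed, both hold the Ctcf core AGNNGGCGC (chr3:101806239-101806538 and chr1:90592886-90593185). The last 2 are the shared promoter of the histone genes Hist1h2bc and Hist1h2ac, which closed (chr13:23683983-23684282, CCAATCA), and that of Epas1, a gene of noncanonical imprinting, which newly opened (chr17:86753348-86753647, GGGCGG).
Zfp960: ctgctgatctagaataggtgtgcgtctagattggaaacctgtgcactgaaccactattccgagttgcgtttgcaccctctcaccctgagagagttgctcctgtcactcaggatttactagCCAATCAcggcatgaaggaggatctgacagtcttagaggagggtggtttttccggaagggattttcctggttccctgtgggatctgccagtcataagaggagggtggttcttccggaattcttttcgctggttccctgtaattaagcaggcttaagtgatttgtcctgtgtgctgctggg
Med13: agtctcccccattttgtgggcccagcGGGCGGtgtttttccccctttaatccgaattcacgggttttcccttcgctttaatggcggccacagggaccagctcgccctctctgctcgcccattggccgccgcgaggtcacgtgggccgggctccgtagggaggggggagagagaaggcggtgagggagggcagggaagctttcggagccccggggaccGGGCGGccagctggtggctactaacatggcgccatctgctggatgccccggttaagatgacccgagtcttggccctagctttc
Mab21l3: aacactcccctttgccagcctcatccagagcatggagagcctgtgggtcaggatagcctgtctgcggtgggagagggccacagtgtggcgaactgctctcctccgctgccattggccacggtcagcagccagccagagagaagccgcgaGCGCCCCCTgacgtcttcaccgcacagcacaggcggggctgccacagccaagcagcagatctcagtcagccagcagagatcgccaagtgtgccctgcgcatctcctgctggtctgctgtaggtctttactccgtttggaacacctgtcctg
Cops8: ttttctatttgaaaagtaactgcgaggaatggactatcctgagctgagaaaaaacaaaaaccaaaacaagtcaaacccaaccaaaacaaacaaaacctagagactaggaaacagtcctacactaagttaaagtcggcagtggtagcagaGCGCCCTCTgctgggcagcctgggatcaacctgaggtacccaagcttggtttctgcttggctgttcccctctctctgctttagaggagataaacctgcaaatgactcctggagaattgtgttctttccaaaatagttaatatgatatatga
Hist1h2bc and Hist1h2ac: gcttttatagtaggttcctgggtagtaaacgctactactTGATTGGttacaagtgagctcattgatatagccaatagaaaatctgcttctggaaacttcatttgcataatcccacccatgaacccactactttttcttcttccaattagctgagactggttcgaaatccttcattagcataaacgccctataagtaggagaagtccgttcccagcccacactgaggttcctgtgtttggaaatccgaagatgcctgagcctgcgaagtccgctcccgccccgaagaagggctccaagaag
Epas1: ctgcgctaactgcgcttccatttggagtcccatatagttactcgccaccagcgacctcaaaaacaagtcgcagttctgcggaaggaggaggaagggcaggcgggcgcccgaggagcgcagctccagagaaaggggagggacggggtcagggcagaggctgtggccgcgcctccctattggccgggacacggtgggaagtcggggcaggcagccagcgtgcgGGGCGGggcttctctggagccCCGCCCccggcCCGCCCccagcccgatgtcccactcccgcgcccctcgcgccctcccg

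Under A-485, chromatin still opened and closed at this transition, but promoters took a larger and distal sites a smaller share of the opening than in DMSO. Of the 13712 early 2-cell regions, 8369 were newly opened (61%, 60.2 to 61.8%) and 5343 were open at both stages. Of the 7094 late 1-cell regions, 1690 closed (23.8%, 22.8 to 24.8%) and 5404 were still open. In DMSO, 23143 of 27693 early 2-cell regions were newly opened (83.6%, 83.1 to 84%) and 5577 of 10214 late 1-cell regions closed (54.6%, 53.6 to 55.6%). The lists differ in length, which by itself moves such shares. With each of the 4 lists held to its 7094 strongest regions by fold enrichment, 45.3% (44.1 to 46.4%) were newly opened and 44.5% (43.4 to 45.7%) closed under A-485, against 78.7% (77.8 to 79.7%) and 78.6% (77.6 to 79.6%) in DMSO. The A-485 shares thus depended on list length, and the order of the treatments was the same in both ways of counting. At equal length the newly opened and the closed share both follow from the same overlap, so they are not separate results. A late 1-cell region also counts as closed there when its early 2-cell partner falls below the cut. The sequencing depth of the ATAC-seq libraries is not known from the lists, and its part in these shares was not tested.

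**Figure D1:**
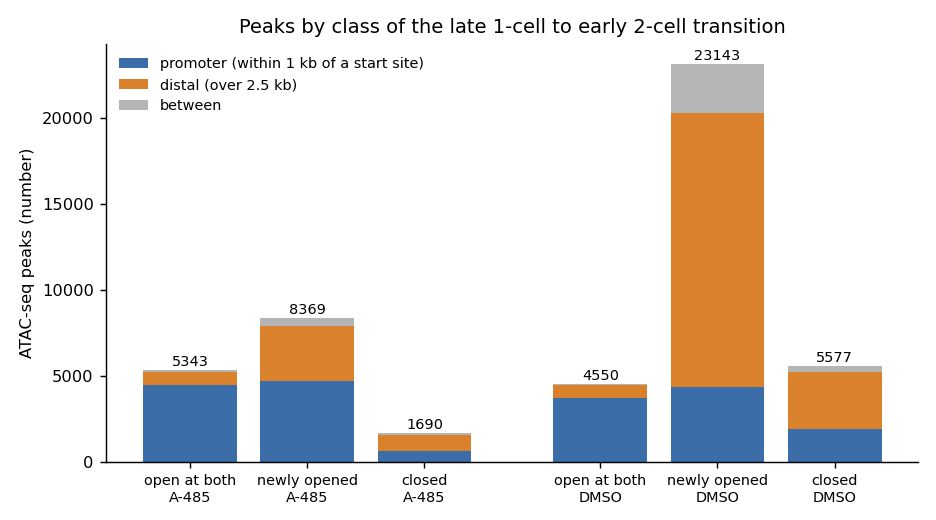
Number of peaks (y axis) that were open at both stages, newly opened or closed (bars, with the total above each) under A-485 and in DMSO, coloured by place (promoter, distal or between). Under A-485, 4690 of the 8369 newly opened regions lay at promoters, whereas in DMSO 15961 of 23143 were distal.

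A region was called a promoter region when it lay within 1 kb of an annotated transcript start and distal when it lay over 2.5 kb from any. Of the regions newly opened under A-485, 4690 lay at promoters (56%, 55 to 57.1%) and 3183 were distal (38%, 37 to 39.1%). In DMSO, 4342 newly opened regions lay at promoters (18.8%) and 15961 were distal (69%). The difference in place was as large at equal list length, where 55.5% (53.8 to 57.2%) of the regions newly opened under A-485 and 13.7% (12.8 to 14.6%) of those newly opened in DMSO were promoter regions. The summit lay in an intron in 27.7% of regions newly opened under A-485 and in 51.9% of those in DMSO. Regions open at both stages under A-485 were mostly promoters (83.2%, 82.2 to 84.2%), and closed regions were mostly distal (55.6%, 53.2 to 57.9%). The last share was 31.3% when both lists were held to a reproducibility score of at least 830, while the lowest score listed is 540.

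Promoters that were open at late 1-cell were lost less often than distal sites. Of late 1-cell regions under A-485, 87.7% (86.8 to 88.6%) of promoter regions and 46.1% (43.8 to 48.5%) of distal regions were still open at early 2-cell. The corresponding shares in DMSO were 66.2% (65 to 67.4%) and 19% (17.8 to 20.3%). These shares also depended on list length: with each list held to its 7094 strongest regions, 65.9% (64.6 to 67.2%) of promoter regions and 29.3% (27.2 to 31.5%) of distal regions were still open under A-485, and 30.7% (29.3 to 32.1%) and 8.72% (7.72 to 9.83%) in DMSO. The stronger a late 1-cell region was, the more often it was still open under A-485, from 68.4% among the weakest 1774 regions by fold enrichment to 91.1% among the strongest 1774. Read from the other side, 48.7% of the promoter regions and 19.9% of the distal regions at early 2-cell under A-485 had already been open. In DMSO the distal share was 4.53% (4.23 to 4.86%).

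Regions open at both stages had higher values at early 2-cell in most cases. Fold enrichment is the signal of a peak over the local background of its own pooled library, so its level is comparable between lists only in part. For the 5343 regions open at both stages under A-485, the median fold enrichment was 7.11 at late 1-cell and 8.9 at early 2-cell, and the median difference on the log2 scale was 0.30, with 80.4% of regions higher at early 2-cell. In DMSO the median difference was 0.26. Only 120 of the A-485 regions were at least 2-fold higher and 6 at least 2-fold lower at early 2-cell. Newly opened and closed regions were weaker than those open at both stages, with median fold enrichments of 7.03 and 6.38. The strongest regions open at both stages were mostly not promoters of single-copy genes: the distal regions nearest to Abcb11, AC115970.1, Pak3, Gm43393 and Gm5110 had values of 64.9, 56.2, 53.5, 52.4 and 42.5 at early 2-cell, and 4 of these 5 share between 38 and 59.8% of their 25-base words with the mitochondrial genome. Their values were close in all 4 lists (for Abcb11, 64.9, 65.2, 65.4 and 65), and reads of mitochondrial DNA cannot be told apart from nuclear reads there. In all, 6 of the 5343 regions open at both stages, 0 of the 8369 newly opened and 0 of the 1690 closed shared over 50% of these words.

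The 5 promoters that newly opened most strongly under A-485 were those of Med13, Zfp950, Rrm1, Vps41 and Sema3c. Med13, a subunit of the kinase module of Mediator, had the highest value, 16.9 at chr11:86357909-86358563, followed by the zinc finger gene Zfp950 with 15.8 and Rrm1, the large subunit of ribonucleotide reductase, with 15.7. Vps41, which acts in vesicle fusion with the lysosome, had 15.4, and Sema3c, a secreted guidance factor, had 15.2. These 5 promoters were not alike in DMSO: Med13 and Rrm1 had a peak at both stages (7.93 and 6.49 at late 1-cell, 11.8 and 14.8 at early 2-cell), Zfp950 had one at early 2-cell only, Vps41 at late 1-cell only, and Sema3c at neither. Among distal regions, the highest values were 20.5 near the miRNA gene Gm22908, 17.4 near Gm21188, 15.7 near Fer, a tyrosine kinase gene, 14.4 near Wdr17 and 14.2 near Gm37825. Of these 5, only that near Gm22908 had a DMSO peak at early 2-cell (12.4), and 4 had one at late 1-cell (6.05 to 10.2).

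The strongest regions that closed under A-485 had mostly also closed in DMSO. Among promoters, Morn2 had a late 1-cell value of 12.4 under A-485 and 12.1 in DMSO, Rasgrp3, an exchange factor for Ras, 11.8 and 10.3, Snx32, a sorting nexin, 11.4 and 11.2, and Itgbl1 11.2 and 12.4. None of these 4 had an early 2-cell peak under either treatment. Aadat, an aminotransferase gene, had 11.3 under A-485 and no DMSO peak. Of the 5 strongest distal closed regions (near Gnb1l, Trim38, Pdzph1, Zpld1 and Sva, 11.9 to 13.9), all had a DMSO late 1-cell peak and 1, near Gnb1l, also had a DMSO early 2-cell peak, with a value of 19.3.

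Most of what newly opened under A-485 was not a member of the DMSO lists. No DMSO peak of either stage overlapped 5233 of the 8369 newly opened regions (62.5%, 61.5 to 63.6%), 57.7% at promoters and 68.6% at distal sites. A further 1477 (17.6%) had a DMSO peak at early 2-cell only, 958 (11.4%) at late 1-cell only and 701 (8.38%) at both stages. So about as many newly opened regions were open already in the late 1-cell DMSO list (958 and 701) as opened there at the same step (1477). Of regions open at both stages under A-485, 61% (59.7 to 62.3%) had a peak at both stages in DMSO. Of closed regions, 49.5% had no DMSO peak, 32.1% had one at late 1-cell only, 10.6% at both stages and 7.87% at early 2-cell only. Seen from DMSO, 15423 of its 15961 newly opened distal regions (96.6%, 96.3 to 96.9%) and 2781 of its 4342 newly opened promoters (64%, 62.6 to 65.5%) had no A-485 peak at either stage. Conversely, of the 5577 regions that closed in DMSO, 972 (17.4%) were in the early 2-cell list under A-485 but not in its late 1-cell list, and 956 (17.1%) were in both.

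The newly opened regions were found on every chromosome. Of these regions, 11% (10.4 to 11.7%) lay within 10000 bp of a late 1-cell region, and their median distance from one was 62162 bp. The values that evenly placed regions would give were not computed. The share of early 2-cell regions that were newly opened lay between 56.4% on chromosome 7 and 67.8% on chromosome 18 among the autosomes, and was 61.8% on the X chromosome. The closed share was highest on chromosome 13, which carries the largest histone gene cluster (31.8%, 26.7 to 37.4%), and the lowest outside the Y chromosome, which held only 6 late 1-cell regions, was that of the X chromosome (17.8%, 13.3 to 23.5%). Intervals of most chromosomes overlapped.

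Base composition set the distal regions of both treatments apart. In the 300 bases around the summit, the distal regions newly opened under A-485 had a median GC content of 51.7%, a median ratio of observed to expected CpG of 0.32, and a median of 8.33% of bases in soft-masked repeats. The distal regions newly opened in DMSO had medians of 48%, 0.215 and 56%. Over 50% of the window was repeat in 11.9% of the former and in 62% of the latter. Promoter regions under A-485 were rich in CpG: an observed to expected ratio over 0.6 with a GC content over 50% was met by 85% of the promoters open at both stages, 70.5% of those newly opened and 55.1% of those closed. Their median widths were 784, 658 and 475 bp.

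Motifs were searched as fixed letters on both strands of the same 300-base windows, and a match is a description of the letters, not of binding. The motifs were the Sp box GGGCGG, the Klf box CCACACCC, the Nr5a2 site CAAGGTCA, which contains the nuclear receptor half-site AGGTCA, the Ctcf core AGNNGGCGC, the NF-Y box CCAATCA, the Ets site CCGGAAGT, the Nrf1 site GCGCATGCG, the Yy1 site AAGATGGCG, the Zeb and Snai box CAGGTG, the cAMP response element TGACGTCA, the Dux site GATTNAATC, and the Obox site TAATCCC, which can share bases with a Dux site. Of all 58713 regions, these were held by 37.6, 6.05, 2.55, 14.9, 10, 10.2, 3.39, 1.5, 1.73, 26.9, 1.95, 0.341 and 27.8%, in the order Sp, Klf, Nr5a2, half-site, Ctcf, NF-Y, Ets, Nrf1, Yy1, Zeb and Snai, cAMP response element, Dux and Obox. Obox proteins are homeobox factors of the oocyte and early embryo, and Ctcf is the insulator protein that holds chromatin loops.

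Of the motifs searched, the TAATCCC site had the largest difference in percentage points between the distal opening of the treatments. It was in 312 of the 3183 distal regions newly opened under A-485 (9.8%, 8.82 to 10.9%) and in 10827 of the 15961 newly opened in DMSO (67.8%, 67.1 to 68.6%). With all 4 lists at equal length, the shares were 10.3% (8.73 to 12%) and 71.6% (70.3 to 72.9%). Distal regions open at both stages and closed under A-485 held it in 5.67 and 5.54%. Most matches lay in repeats: with matches counted only where clear of soft-masked bases, the shares of newly opened distal regions were 2.23% under A-485 and 2.37% in DMSO. The median soft-masked share of these windows was 8.33% under A-485 and 56% in DMSO. Less sequence was thus searched in DMSO, and an equal density of matches is not shown. Among windows of which at most 50% was soft-masked, the shares with any match were 5.49% (4.71 to 6.4%) and 57.2% (56 to 58.5%). Such windows can still hold the match in their soft-masked bases, so these shares do not show a difference outside repeats.

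The Ctcf core ran the other way. It was in 418 of 3183 distal regions newly opened under A-485 (13.1%, 12 to 14.4%), as near Mab21l3, in 20.2% (17.5 to 23.1%) of distal regions open at both stages and in 17% (14.8 to 19.6%) of those closed, as near Cops8. Of distal regions newly opened in DMSO, 1.6% (1.41 to 1.8%) held it, and 6.25% of all distal regions did. At equal list length, the newly opened shares were 13.7% (12 to 15.7%) and 1.11% (0.84 to 1.47%). The number of DMSO regions with the core was 255, which is below the 418 under A-485, so the difference was not one of share alone. The Sp box was in 20.7% of distal regions newly opened under A-485 and 6.8% in DMSO, and the NF-Y box in 8.17 and 2.72%. The Nr5a2 site was less frequent under A-485 (1.73%, 1.33 to 2.24%) than in DMSO (5.12%, 4.79 to 5.48%), whereas the half-site it contains was at 17.7 and 18.4%, with intervals that overlap. With matches counted only where clear of soft-masked bases, the Nr5a2 site was at 1.07% under A-485 and 1.05% in DMSO. The half-site was then at 15 and 8.55%. The median soft-masked share of these windows was 8.33% under A-485 and 56% in DMSO, so less sequence was searched in DMSO. Shares counted in this way therefore show neither an equal nor a different density of matches in the treatments.

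**Figure D2:**
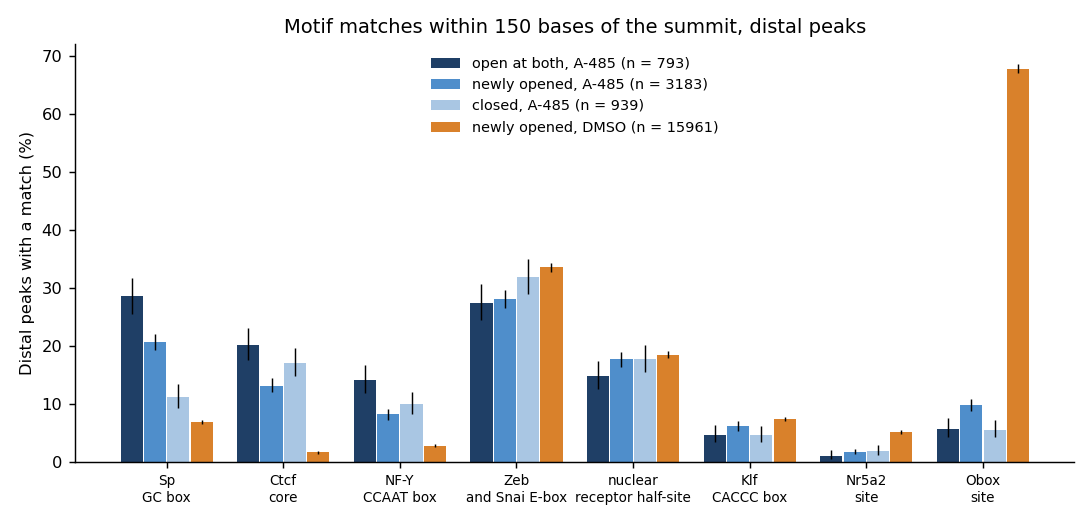
Share (%, y axis) of distal regions that hold each of 8 motifs (x axis), for the 3 classes under A-485 (blue) and for regions newly opened in DMSO (orange), with 95% Wilson intervals as error bars. Distal regions newly opened in DMSO stand apart with 67.8% holding TAATCCC, against 9.8% of those newly opened under A-485, which hold the Ctcf core more often (13.1% against 1.6%).

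At promoters, the NF-Y box was less frequent in newly opened regions than in those open at both stages. CCAATCA was in 880 of 4447 promoters open at both stages (19.8%, 18.6 to 21%), as in that of Zfp960, in 339 of 4690 newly opened promoters (7.23%, 6.52 to 8%) and in 76 of 630 closed promoters (12.1%, 9.75 to 14.8%), against 15.3% of all promoter regions. The Sp box, present 2 times in the window at Med13, was in 75.4, 65.2 and 49.7% of these classes, in the same order, and in 65.5% of all promoter regions. The cAMP response element was in 4.5% (3.93 to 5.15%) of promoters open at both stages, 2.3% (1.91 to 2.77%) of newly opened and 4.13% (2.83 to 5.98%) of closed promoters. TAATCCC was rare at promoters under A-485, with 2.58% of the newly opened, and frequent at promoters newly opened in DMSO, with 40.1%. Most of these DMSO matches lay in repeats: clear of soft-masked bases, the shares were 1.39% under A-485 and 1.87% in DMSO. Here too less sequence was searched in DMSO, with a median soft-masked share of 33.7%, against 0.333% under A-485.

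Gene by gene, newly opened promoters outnumbered closed ones under A-485. Of 21938 protein-coding genes, 12482 (56.9%) had no promoter peak at either stage, 4946 (22.5%) had a promoter open at both stages, 4038 (18.4%, 17.9 to 18.9%) a newly opened one and 472 (2.15%, 1.97 to 2.35%) a closed one. In DMSO these were 4281, 2683 (12.2%) and 1464 (6.67%). Of the 4038 newly opened promoters, 1924 (47.6%, 46.1 to 49.2%) had no DMSO peak, 1113 (27.6%) were newly opened in DMSO too, 569 were open at both DMSO stages and 432 closed in DMSO. Of the 472 closed promoters, 122 were open at both DMSO stages, 122 closed, 86 were newly opened and 142 had no DMSO peak. The share of newly opened promoters differed with the level of RNA in the zygote: 9.03% of genes below 0.1 FPKM, 20.7% of those from 0.1 to 1 FPKM, and between 23.9 and 27% of genes at 1 FPKM and above had a newly opened promoter. FPKM counts fragments per kilobase of a transcript relative to all fragments that mapped. The share with a closed promoter lay between 1.05 and 3.32%.

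**Figure D3:**
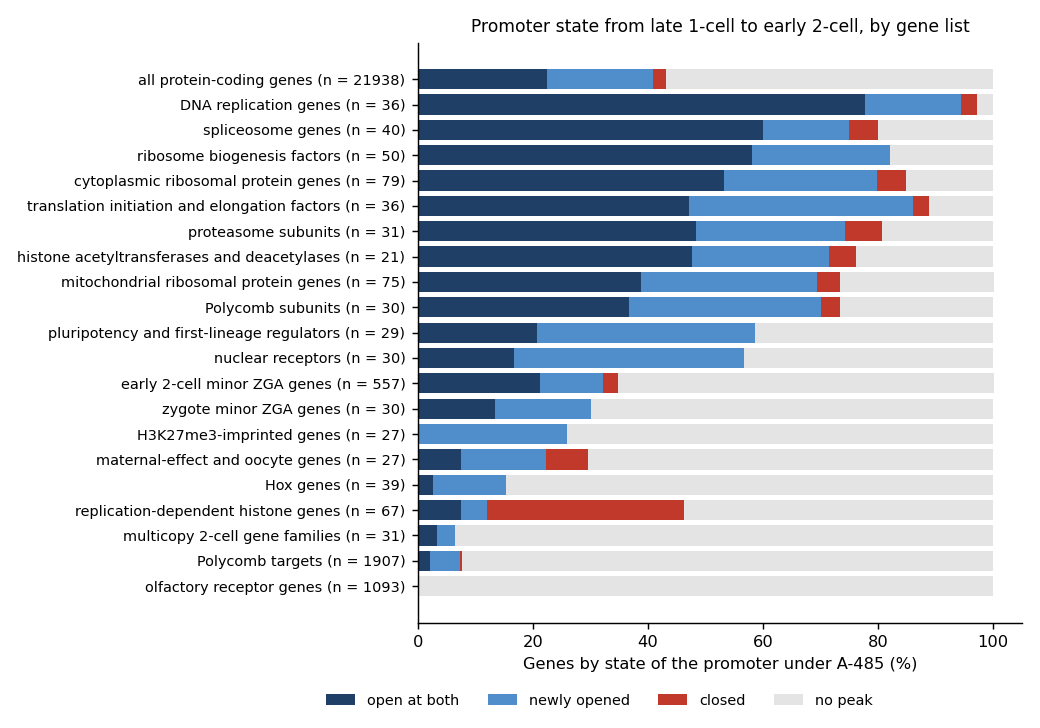
Share (%, x axis) of the genes of each list (y axis, with the number of genes) whose promoter was open at both stages, newly opened, closed or without a peak under A-485, with all protein-coding genes at the top. Replication-dependent histone genes have the largest closed share, 23 of 67, against 2.15% of all protein-coding genes.

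Over 50% of the DNA replication genes, ribosome biogenesis factors and spliceosome genes had a promoter open at both stages, and slightly fewer of the proteasome subunits and translation factors. Of 36 DNA replication genes, 28 were open at both stages, 6 newly opened and 1, Mcm10, closed. The helicase subunit Mcm3 had 10.1 at late 1-cell and 14 at early 2-cell, and Gmnn, which restrains origin licensing, 6.82 and 11.9. Newly opened members included Orc3 of the origin recognition complex (13.5), Gins3 (9.89), Rfc2 of the clamp loader (9) and Pola1 of the primase complex (7.94). Of 50 ribosome biogenesis factors, 29 were open at both stages, 12 newly opened and 0 closed. Nop14, of the small-subunit processome, had 9.25 and 12.8, and Heatr1 had 6.35 and 12.6. Newly opened were Wdr43 (11.5), Ftsj3 (10.2), Rrp15 (9.64) and the pseudouridine synthase Dkc1 (9.01). Of 31 proteasome subunits 15 were open at both stages, 8 newly opened and 2 closed (Psma5, 7.96, and Psmc4, 5.75). Of 40 spliceosome genes the numbers were 24, 6 and 2 (Sf3b1, 6.8, and Srsf6, 6.05), and of 36 translation factors 17, 14 and 1 (Eif3k, 5.8). The counts open at both stages are high beside the 22.5% of all protein-coding genes, while those newly opened and closed lay on both sides of the 18.4 and 2.15% of all genes. Such genes also have high RNA levels, and the part of the level was not tested.

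The enzymes that A-485 blocks had open promoters. Crebbp, which encodes CBP, was newly opened under both treatments (7.07 under A-485 and 7.36 in DMSO), and Ep300, which encodes p300, was open at both stages under A-485 (6.3 and 6.54). Of 21 acetyltransferase and deacetylase genes, 10 were open at both stages, 5 newly opened and 1, Kat5, closed (5.28). Among factors whose motifs were searched, Ctcf was newly opened (7.1), as in DMSO (9.88).

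Genes of the first lineages and nuclear receptors had more newly opened promoters than promoters open at both stages, without a test of the difference. Of 29 pluripotency and first-lineage regulators, 6 were open at both stages, 11 newly opened and 0 closed. The newly opened included Cdx2, a trophectoderm factor (7.48), Yap1, the coactivator of the Hippo pathway (7.41), Esrrb (7.37) and Tbx3 (6.97), of which Esrrb had no DMSO peak. Of 30 nuclear receptors, 5 were open at both stages, 12 newly opened and 0 closed, with the highest values at Nr6a1 (10.6), the glucocorticoid receptor gene Nr3c1 (9.68), Nr2f2 (8.44) and Rora (7.6). Among all protein-coding genes, 18.4% were newly opened and 22.5% open at both stages. In DMSO, 10 of the lineage regulators were newly opened and 4 open at both stages, and of the nuclear receptors 6 and 6. Of 27 maternal-effect and oocyte genes, Nlrp5, a component of the subcortical maternal complex, had the highest newly opened value (12.4), and Tle6, of the same complex, and Gdf9 closed (8.34 and 5.91).

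Replication-dependent histone genes stood out among closed promoters. These genes are transcribed in S phase, lie in clusters and are often paired head to head around 1 shared promoter. Of 67 such genes, 23 had a closed promoter under A-485 (34.3%, 24.1 to 46.3%), beside 2.15% of all protein-coding genes, 5 were open at both stages and 3 newly opened. In DMSO, 8 had a closed promoter (11.9%), beside 6.67% of all protein-coding genes. The closed count under A-485 was 16 at a score of at least 830 and 27 at equal list length. At equal list length the closed share of all late 1-cell regions under A-485 also rose, from 23.8 to 44.5%. The 23 genes, which the interval takes as independent, shared 14 regions on chromosomes 3, 11 and 13. Their late 1-cell values under A-485 lay between 5.68 and 9.83, the highest at the shared promoter of Hist1h2ac and Hist1h2bc printed above (chr13:23683760-23684361), followed by 9.3 at Hist1h2an and Hist1h2bp (chr13:21787052-21787710) and 8.82 at Hist1h2ad and Hist1h2bf (chr13:23573840-23574534). In DMSO, 11 of the 14 regions had an early 2-cell peak, with values of 5.71 to 13.3, and 10 had a late 1-cell peak. At Hist1h2ac and Hist1h2bc these were 11 and 8.74, and at Hist1h2ak and Hist1h2bn, which had no late 1-cell peak in DMSO, 13.3 at early 2-cell. The NF-Y box was in 11 of the 14 regions, beside 12.1% of all closed promoter regions and 15.3% of all promoter regions. Among histone regions that did not close, it was also at Hist1h1c, Hist1h1b, Hist1h3e and Hist1h1e. It was absent at Hist1h2aa with Hist1h2ba and at Hist2h2aa1 with Hist2h3c1. Not all histone promoters closed: Hist1h1c, a linker histone gene, was open at both stages (6.01 and 9.65), and Hist1h1b, Hist1h3e and Hist1h1e newly opened (6.37, 8.85 and 11.4) with no DMSO peak.

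**Figure D4:**
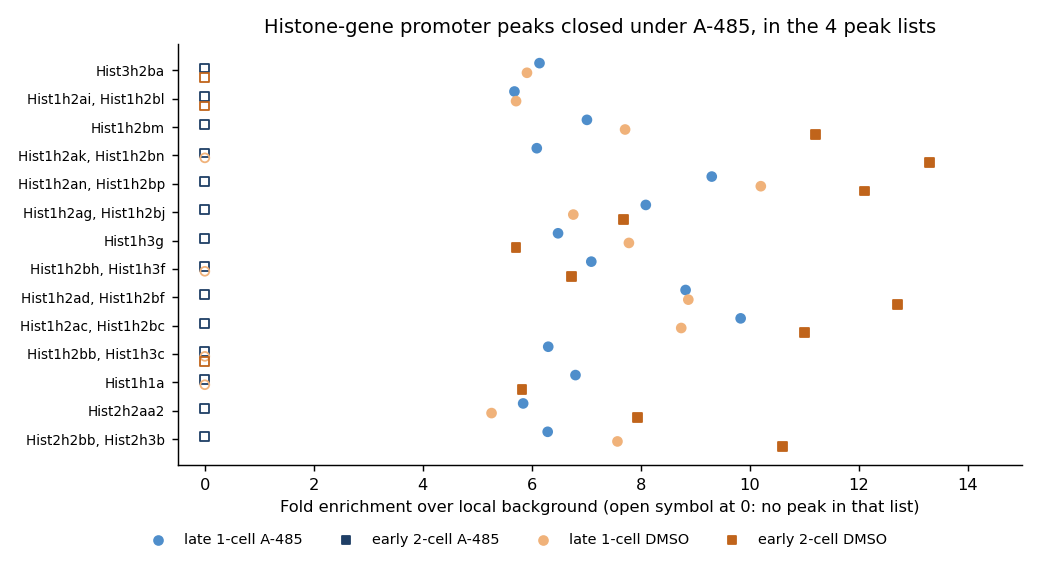
Fold enrichment (x axis) of the 14 histone gene regions that closed under A-485 (y axis), in each of the 4 lists (circles late 1-cell, squares early 2-cell; blue A-485, orange DMSO), with open symbols at 0 where the list holds no peak. All 14 have a late 1-cell A-485 peak and no early 2-cell A-485 peak by their choice, and 11 have an early 2-cell DMSO peak.

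Genes bound by Polycomb in later embryos opened in small numbers. The study lists genes whose promoters carry H3K27me3, the repressive mark of Polycomb, in the inner cell mass and which are not expressed in preimplantation embryos, and 1907 of 1917 were matched. Of these, 98 (5.14%, 4.24 to 6.22%) had a newly opened promoter under A-485, 41 were open at both stages and 7 closed. The newly opened share was below the 18.4% of all protein-coding genes, but 78 of the 98 had no DMSO promoter peak, beside 47.6% of all newly opened promoters, and in DMSO 25 (1.31%, 0.89 to 1.93%) were newly opened. The highest values were at Sertm1 (14) and Col9a1, a collagen gene (11.5), both with no DMSO peak, and at AC130204.1 (11.9) and Gm9934 (11.8), which had DMSO peaks. The count was 45 at a score of at least 830 and 41 at equal list length. The number of all newly opened regions under A-485 also fell at equal list length, from 8369 to 3211. Of 39 Hox genes 5 newly opened, with the highest values at Hoxa4, Hoxd13, Hoxa7 and Hoxb9 (5.06 to 6.3), and of 1093 olfactory receptor genes 1 newly opened (Olfr1349, 9.96).

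Genes of noncanonical imprinting, whose maternal allele is silenced by H3K27me3 from the oocyte, had promoter peaks under A-485 and in neither DMSO list. Of 27 such genes, 7 had a newly opened promoter (25.9%, 13.2 to 44.7%), and 0 of the 27 had a DMSO promoter peak. Among all protein-coding genes, 18.4% were newly opened, which lies within this interval, 61.6% had no DMSO promoter peak, and of the newly opened promoters 47.6% had none. The 7 were Epas1, a hypoxia factor (8.79, chr17:86753174-86753783), Platr4 (8.18, chr3:41492848-41493382), Mbnl2, a splicing regulator (8.14, chr14:120275386-120275831), Lpar3, a receptor for lysophosphatidic acid (8, chr3:146220583-146221119), and the transcription factor gene Runx1 (6.72, chr16:92697251-92697610), with Etv6 (5.79, chr6:134034865-134035747) and the kinase gene Hunk (5.59, chr16:90385511-90386481). Of these 7, 1, Lpar3, reached a score of 830, and 4 were counted at equal list length. All promoter regions newly opened under A-485 had a median fold enrichment of 6.97 and a median score of 786. The lists do not separate the parental alleles. Their RNA was low under both treatments, with all 8 libraries of Epas1 between 0.05 and 1 FPKM, those of Hunk between 0.02 and 0.24 FPKM and those of Etv6, the highest, between 0.42 and 1.52 FPKM. Of the 27 genes, 13 entered the RNA test under A-485 and 0 passed it.

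Of 17 imprinting control regions methylated in the oocyte, 4 newly opened under A-485 (Plagl1, 9.11, Mcts2, 5.98, Peg13, 5.93, and Inpp5f, 5.1) and Impact and Peg3 were open at both stages (7.57 and 6.7, and 8.04 and 6.46). Of the 4 methylated in sperm, that of Dlk1-Gtl2 was open at both stages (7.13 and 5.21). DMSO peaks lay at Impact, Mcts2 and Zrsr1 only. All regions newly opened under A-485 had a median fold enrichment of 7.03. The control regions differ in length, and no share over comparable regions was computed. The counts are thus not a result about control regions as a set.

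RNA from separate libraries gave a readout that the peaks did not use. The 8 libraries held 21496069 to 32585987 expected counts, which are estimated fragments per gene. The markers of oocyte and embryo summed to 3084 to 3592 FPKM in every library, and the summed markers of other cells were low: 0.39 to 2.67 FPKM for cumulus cells (with 1 of 6 markers at 1 FPKM or more, in early 2-cell embryos under A-485), 5.59 to 18.9 for sperm, and 0.42 to 2.04 for fibroblasts. From zygote to early 2-cell under A-485, edgeR's quasi-likelihood test called 1360 of 19858 genes higher (6.85%) and 3103 lower (15.6%), where a called gene changed 2-fold or more, reached a group mean of 1 FPKM and passed 0.05 after Benjamini-Hochberg adjustment. In DMSO, 2257 of 20106 were higher (11.2%) and 3002 lower (14.9%). The difference of both transitions, tested as an interaction over all 8 libraries, was higher under A-485 for 72 of 23002 genes (0.313%) and lower for 849 (3.69%). The interaction and the A-485 transition share the 4 A-485 libraries, and "higher" or "lower" means a share of the RNA of the library, since scaling sets its level. The median log2 fold change of all genes under A-485 was 0.14, and was 0.24 with the size factors of DESeq2 and -0.05 with scaling to total counts. With total counts, 981 genes were higher. Without the FPKM cutoff, 2648 were higher. The 72 genes higher in the difference were 43 without zygote A-485 replicate 1, 41 and 35 without zygote DMSO replicates 1 and 2, and 125 with no filter beyond 1 count.

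Genes with newly opened and with closed promoters had shares of called genes that lay close together, and the difference was not tested. Among protein-coding genes tested under A-485, 263 of 3667 with a newly opened promoter were higher (7.17%) and 719 lower (19.6%), and their median log2 fold change was -0.02. With a closed promoter, 31 of 413 were higher (7.51%) and 87 lower (21.1%), with a median of -0.18. With a promoter open at both stages, 357 of 4791 were higher (7.45%) and 1222 lower (25.5%), with a median of -0.20, and with no peak 304 of 6100 were higher (4.98%) and 842 lower (13.8%), with a median of 0.10. The shares of higher genes thus lay near the 6.85% of all genes in each class. Levels followed the classes more than changes did: the median FPKM went from 10.4 to 5.69 for promoters open at both stages, from 3.76 to 2.33 for newly opened, from 2.9 to 1.95 for closed and from 0.01 to 0.06 for promoters without a peak. In the difference between treatments, 177 of 3850 genes with a newly opened promoter were lower under A-485 (4.6%), beside 352 of 4864 (7.24%) for promoters open at both stages, 15 of 433 (3.46%) for closed promoters and 210 of 7251 (2.9%) for promoters without a peak. Of genes with a promoter newly opened under both treatments, 83 of 1077 (7.71%) were lower under A-485.

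Among genes whose promoter was open at both stages, the 4 named losses were at Gnl2, Bms1, Gm15246 and Fam50a. Gnl2, a nucleolar GTPase of large-subunit assembly, had 113 and 102 FPKM in A-485-treated zygotes and 1.98 and 4.29 FPKM at early 2-cell, and Bms1, a GTPase of small-subunit assembly, had 356 and 369, then 11 and 12.6 FPKM. The 2 groups did not overlap for either gene. Gnl2 fell by 5.19 (SE 0.17, adjusted p = 1.22e-10) and Bms1 fell by 4.75 (SE 0.08, adjusted p = 2.00e-12) on the log2 scale. In DMSO, Gnl2 went from 91.3 and 97.4 to 6.29 and 7.51 FPKM and Bms1 from 332 and 377 to 13.4 and 13.7 FPKM, and the difference between treatments was called for Gnl2 (-1.41, SE 0.22, adjusted p = 2.00e-04) and not for Bms1 (-0.17, SE 0.10, adjusted p = 0.43). Fam50a fell by 4.24 and the noncoding Gm15246 fell by 4.68. The largest gains were at the pseudogenes Gm20760 and Gm13135, whose reads may come from near-identical copies, at Gcsh, a subunit of the glycine cleavage system, and at Bc1, a short RNA polymerase III transcript. Gcsh had 0.25 and 1.17 FPKM in zygotes and 12 and 11.5 FPKM at early 2-cell (log2 fold change 4.20, SE 0.45, adjusted p = 5.32e-06), while in DMSO it reached 40.2 and 36.3 FPKM, a difference of -1.14 (SE 0.49) with an adjusted p of 0.23.

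Genes with a newly opened promoter moved in both directions. Cphx1, a homeobox gene of the early embryo, had 205 and 178 FPKM in A-485-treated zygotes and 0.34 and 9.57 FPKM at early 2-cell, although its promoter opened to a fold enrichment of 7.77. It fell by 5.10 on the log2 scale (SE 0.63, adjusted p = 1.99e-05). In DMSO, where the promoter also opened (9.81), it went from 186 and 148 to 34.7 and 77.2 FPKM, so the early 2-cell libraries of the treatments did not overlap, and the difference was -3.65 (SE 0.71, adjusted p = 0.0019 by edgeR). With DESeq2 this difference was -3.70 with an adjusted p of 0.38, and without zygote DMSO replicate 2 it was -3.48 with an adjusted p of 0.053. Polr2k, a small subunit shared by the RNA polymerases, went from 44.6 and 40.2 to 1.23 and 1.24 FPKM under A-485 and from 47.8 and 42.4 to 7.06 and 6.36 FPKM in DMSO. The difference of Polr2k was -2.24 (SE 0.43, adjusted p = 0.0018), and its promoter had no DMSO peak. Pwp2, of the small-subunit processome, fell by 4.73, and Rars, the arginyl-tRNA synthetase, fell by 4.49, both at promoters without a DMSO peak.

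Gains at newly opened promoters included a histone gene and noncoding RNAs. Hist1h1b, a linker histone, had 0.63 and 0.17 FPKM in zygotes and 12.9 and 8.72 FPKM at early 2-cell under A-485, a log2 fold change of 4.93 (SE 0.54, adjusted p = 6.49e-06). Malat1, a nuclear long noncoding RNA, had 6.61 and 6.46 FPKM, then 20.3 and 17.9 FPKM (2.21, SE 0.11, adjusted p = 5.49e-09), and in DMSO reached 43.6 and 42.4 FPKM. The short Vaultrc5, a vault RNA, had 8471 and 6134 FPKM, then 36484 and 30589 FPKM, with a rise of 2.23 (SE 0.10) under A-485 and of 1.03 (SE 0.17) in DMSO, and was the named gene with a positive difference that was called (1.17, SE 0.22, adjusted p = 0.0014). FPKM of such short RNAs depends on the effective length, so it is not to be compared with that of other genes. Snora73a, a small nucleolar RNA, had 13.2 and 13.3, then 32.5 and 60.6 FPKM, with an adjusted p of 0.037 for its rise. This was 0.32 without early 2-cell replicate 2, and 0.12 and 0.078 without zygote replicate 1 or 2.

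Of the 472 genes whose promoter closed, 278 (58.9%, 54.4 to 63.2%) had at least 1 FPKM at early 2-cell under A-485, beside 291 (61.7%) in the zygote. Ssb, the La protein that binds new RNA polymerase III transcripts, went from 992 and 967 to 70.4 and 53 FPKM and fell by 3.82 (SE 0.08, adjusted p = 8.08e-12). Tdrd5, a tudor domain protein of the piRNA pathway, fell by 3.64 and Dlgap5, a spindle protein, fell by 3.60. In DMSO, where the promoters of all 3 were in the early 2-cell list (8.21, 8.62 and 9.87), the log2 fold changes were -3.51, -3.61 and -3.37, and no difference between treatments was called (adjusted p of 0.075, 0.95 and 0.34). Mt2, a metallothionein, rose from 1.87 and 3.42 to 25.6 and 24.6 FPKM under A-485 while its promoter peak was lost (5.62 at late 1-cell), a log2 fold change of 3.50 (SE 0.38, adjusted p = 6.12e-06). In DMSO, with a peak at both stages (5.81 and 4.91), Mt2 reached 63.1 and 49.1 FPKM, and the difference was -1.95 (SE 0.51, adjusted p = 0.026). This difference did not pass when any of 6 of the 8 libraries was left out, with adjusted p-values of 0.053 to 0.28. The noncoding Gm29103 fell by 5.59 under A-485.

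**Figure D5:**
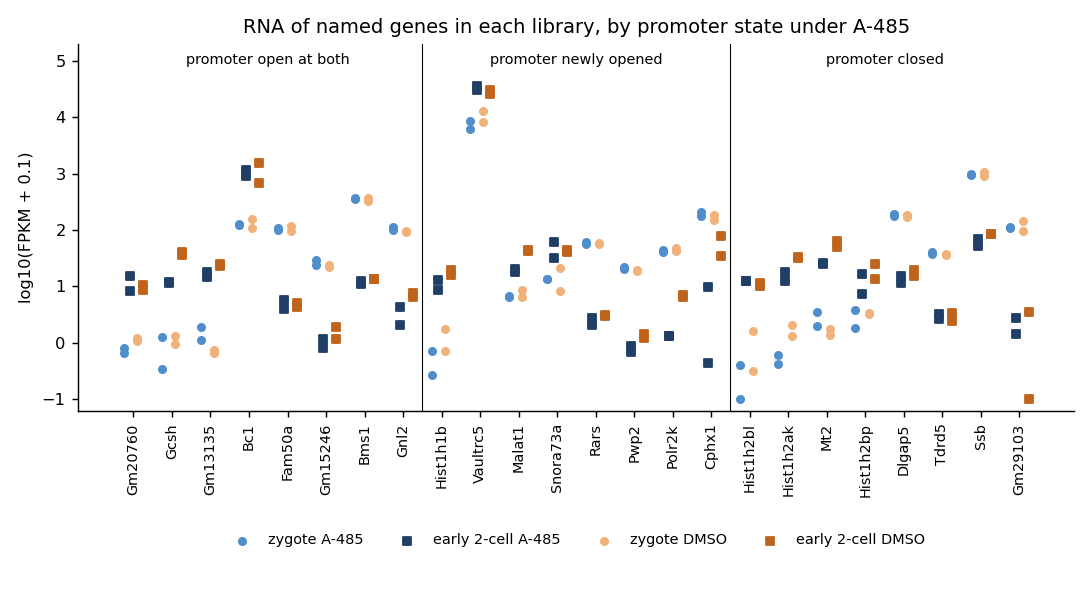
RNA level as log10(FPKM + 0.1) (y axis) of the 24 genes chosen by size of change (x axis, in panels by state of the promoter under A-485) in each of the 8 libraries (circles zygote, squares early 2-cell; blue A-485, orange DMSO; an FPKM of 0 is drawn at the bottom). By their choice the zygote and early 2-cell points under A-485 do not overlap, and for Cphx1 the early 2-cell points under A-485 (0.34 and 9.57 FPKM) lie below those in DMSO (34.7 and 77.2 FPKM).

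The RNA of histone genes was mostly higher at early 2-cell, also at genes whose promoter had left the peak list. Of 67 replication-dependent histone genes, 40 were higher under A-485 and 1, Hist2h4, was lower (background 6.85 and 15.6%), and 44 were higher in DMSO. The count under A-485 was 34 with scaling to total counts and 37 to 40 with a library left out. Of the 23 genes with a closed promoter, 13 were higher. Hist1h2bl had 0 and 0.31 FPKM in zygotes and 12.2 in both early 2-cell libraries, and Hist1h2ak had 0.51 and 0.33, then 18.2 and 12.5 FPKM (log2 fold change 5.40, SE 0.70, adjusted p = 2.82e-05). Hist1h2ac, at the strongest closed region, went from 14.7 and 14.4 to 20.5 and 21.7 FPKM (0.73, adjusted p = 9.07e-05, under the fold rule), and its partner Hist1h2bc from 50.2 and 48.7 to 38.3 and 47 FPKM (adjusted p = 0.94). The difference between treatments was called for 1 of the 67, Hist1h2an: it went from 8.08 and 3.54 to 35.6 and 18.8 FPKM under A-485 and from 2.2 and 2.51 to 85.2 and 88.2 FPKM in DMSO (-2.84, adjusted p = 0.0025). Copies of histone genes are near identical, so how reads were divided among them is uncertain, and how far the total RNA libraries captured transcripts without a poly(A) tail was not tested.

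Lists with many open promoters held more genes that were lower than higher in RNA under A-485, as did all genes tested (15.6 and 6.85%). Of 50 ribosome biogenesis factors, 35 were lower under A-485 and 0 higher, at a median log2 fold change of -1.57, and 25 were lower and 6 higher in DMSO. The difference was lower for 14 of the 50, among them Nop14, which went from 26.9 and 27.1 to 3.14 and 3.22 FPKM under A-485 and from 23.5 and 25.5 to 15.5 and 12.6 FPKM in DMSO (-2.09, SE 0.19, adjusted p = 2.66e-07), although its promoter was open at both stages of both treatments. Of 36 DNA replication genes, 21 were lower and 1 higher (median -1.31), against 17 lower and 1 higher in DMSO. Orc1, of the origin recognition complex, went from 44.3 and 39.9 to 4.7 and 4.85 FPKM under A-485 and from 45.9 and 44 to 18.3 and 13.4 FPKM in DMSO (-2.09, SE 0.17, adjusted p = 6.69e-08). Proteasome subunits were lower in 22 of 31 (median -2.24), and in 21 of 31 in DMSO. Cytoplasmic ribosomal protein genes were lower in 41 and higher in 6 of 79 under A-485 (median -1.25), while in DMSO 19 were lower and 22 higher of 78 (median 0.18), and the difference was called lower for 33 of the 79. Of 36 translation factors 16 were lower and 2 higher under A-485, and of 40 spliceosome genes 16 and 4.

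The developmental lists differed in RNA. Of 22 lineage regulators tested under A-485, 5 were higher (22.7%, beside 6.85% of all genes) and 4 lower (18.2%, beside 15.6%), with a median of -0.07. Tbx3 went from 1.23 and 2.64 to 7.6 and 7.44 FPKM (2.16, SE 0.22, adjusted p = 3.25e-06), Yap1 from 247 and 237 to 438 and 460 FPKM (1.08, SE 0.05, adjusted p = 3.34e-09), and Esrrb from 13.6 and 11.9 to 1.96 and 0.81 FPKM (-2.56, SE 0.22, adjusted p = 7.09e-07). Cdx2 had at most 0.15 FPKM in the A-485 libraries, so its newly opened promoter was not accompanied by detectable RNA. Of 27 nuclear receptors tested, 0 were higher and 2 lower, and of 188 Polycomb targets tested, 1 was higher and 0 lower. The list leaves out genes expressed in these embryos, so low RNA is built into it.

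Of the minor ZGA genes of the early 2-cell stage, fewer had a newly opened promoter under A-485 than in DMSO. Of 557 early 2-cell minor ZGA genes, which the study chose by their fall when transcription was blocked, 118 were open at both stages, 61 newly opened (11%, 8.62 to 13.8%) and 14 closed under A-485, against 112, 101 (18.1%, 15.2 to 21.5%) and 20 in DMSO. Among all protein-coding genes, 18.4% were newly opened under A-485 and 12.2% in DMSO. The highest newly opened values were at Rars2, whose region is that of Orc3 (13.5), Dbr1, the lariat debranching enzyme (10.6), Zfp622 (10.6) and Dclre1a (10.5), and all 4 had DMSO peaks. Of 440 tested under A-485, 154 were higher (35%, beside 6.85% of all genes) and 27 lower (6.14%, beside 15.6%), at a median log2 fold change of 2.29. In DMSO, 486 of 557 were higher (87.3%, beside 11.2% of all genes). The list was chosen by the study for RNA made at this stage, so its direction is not independent evidence. Of the 30 zygote minor ZGA genes, 4 were open at both stages and 5 newly opened under A-485 (16.7%, 7.34 to 33.6%), against 6 and 1 in DMSO (3.33%, 0.591 to 16.7%). Both intervals hold the newly opened share of all protein-coding genes. The highest newly opened values under A-485 were at Zfp353-ps (9.84) and Sox6 (8.43), the latter with no DMSO peak.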

How the data were processed

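Open chromatin was measured by ATAC-seq and total RNA by RNA-seq in A-485- and DMSO-treated mouse embryos, with 2 replicates per group. ATAC-seq peaks were made by the authors with the ENCODE pipeline, and 1 list of reproducible peaks over both replicates was deposited for each stage and treatment, with a score of reproducibility (at least 540), the fold enrichment over local background (a ratio), and the −log10 q-value of each peak. For RNA-seq, the authors trimmed reads with Trimmomatic 0.39, mapped them to GRCm38 with STAR 2.7.8a and quantified genes with RSEM 1.3.1. The deposited values are the expected count, which is not normalized, and the FPKM of 55385 genes, of which 55144 were found in GENCODE M21. Groups were taken from the labels of each sample.

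Lines of a list with the same position were joined. Regions were compared by overlap of at least 1 bp and placed by distance from 132758 transcript starts of GENCODE M21 (promoter within 1 kb, distal over 2.5 kb). The build of the peak lists is not given in the sources used here, and GRCm38 was taken because all regions lay within its chromosomes and peaks sat at its start sites. Windows of 300 bases were read from the RefSeq copy of GRCm38 with pysam 0.24.0 in Python 3.11.15, and intervals came from scipy 1.17.1. The sequence of 1 further region is not reported here.

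Expected counts were rounded and tested with edgeR 4.0.16 (R 4.3.3; TMM, quasi-likelihood F test, Benjamini-Hochberg adjustment) over genes with at least 10 summed counts. Genes were called where they changed 2-fold or more, had a group mean of 1 FPKM or more and passed 0.05 after adjustment. The A-485 transition used 4 libraries and the difference between treatments all 8, as an interaction of stage and treatment. The libraries held 21496069 to 32585987 expected counts. Counts of the 2 libraries of a group differed by more than counting error (chi-square over degrees of freedom, 9.44 to 11.8), so p-values measure the spread between pooled libraries. On simulated counts with 200 genes changed 3-fold, 91% were recovered in the A-485 transition (19858 genes) and 76.5% in the difference (23002 genes). The changed genes were drawn only from those above a minimum mean count, and the FPKM rule did not act. Recovery of genes with few counts is therefore not known.

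Named peaks were the 5 of highest fold enrichment in each class and place. Named genes were the 4 of each direction and promoter class with the largest called log2 fold change, with 10 FPKM or more in the group with more RNA and no overlap of libraries, and up to 4 members of each gene list per class. The members and lists were chosen with earlier results of these data known. The lists of minor ZGA genes, Polycomb targets, noncanonically imprinted genes and imprinting control regions are those of the study. Genes of the text outside this rule (Kat5, Orc1, Hist1h2bc and others given for a list, a difference or a printed sequence) were chosen after their values were seen.

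Alternatives were other overlaps, a score of at least 830, lists of equal length, distance from the summit, starts of protein-coding genes only, DESeq2 1.42.0, other scalings and filters, a replicate block and leaving out each library.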

Additional observations from a re-analysis of the deposited data

Results flagged for a closer look

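The difference between the A-485 and the DMSO transition, tested as an interaction by edgeR with Benjamini-Hochberg adjustment over 23002 genes, passed an adjusted p of 0.05 for 8 of the 24 genes named for their RNA. It was negative, meaning less RNA gained or more lost under A-485, for Gm13135 (-1.70, adjusted p = 0.000769), Gnl2 (-1.41, adjusted p = 0.0002), Malat1 (-0.87, adjusted p = 0.0047), Cphx1 (-3.65, adjusted p = 0.0019), Polr2k (-2.24, adjusted p = 0.0018), Pwp2 (-0.89, adjusted p = 0.019) and Mt2 (-1.95, adjusted p = 0.026). It was positive for Vaultrc5 (1.17, adjusted p = 0.0014). Malat1 and Pwp2 were under the 2-fold limit of a call. Of the 8 promoters, those of Gm13135 and Gnl2 were open at both stages under A-485, that of Mt2 closed, and the others were newly opened. The difference of Pwp2 did not pass in 6 of the 8 fits with a library left out (adjusted p of 0.064 to 0.12) and that of Mt2 likewise in 6. That of Cphx1 did not pass with DESeq2 (adjusted p = 0.38) or without zygote DMSO replicate 2 (0.053), and that of Malat1 did not pass without zygote DMSO replicate 1 (0.05), whereas those of Gm13135, Gnl2, Polr2k and Vaultrc5 passed in each alternative run. The reads of the pseudogene Gm13135 and of the short Vaultrc5 may come from near-identical copies.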

How the results depend on the processing

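With peaks up to 500 bp apart counted as shared, 60.1% of early 2-cell regions under A-485 were newly opened and 22.8% of late 1-cell regions closed. With a score of at least 830 these were 61.9 and 21%, and with equal list length 45.3 and 44.5%. The promoter share of newly opened regions was 77% at a score of at least 830, 54.1% by distance from the summit and 50.7% with starts of protein-coding genes only. The distal share of closed regions was 31.3% at a score of at least 830, 39% at equal list length and 62.4% with protein-coding starts. Settings for gene lists, motifs and all 4 lists at equal length were added after the data had been seen: the Polycomb targets newly opened were 45 and 41 in place of 98, and the imprinted genes 1 and 4 in place of 7. TAATCCC was in 7.3% and the Ctcf core in 15.4% of distal newly opened regions at a score of at least 830. In RNA, 2648 genes were higher under A-485 with no FPKM cutoff. Leaving out single libraries gave 1291 to 1390 higher and 2886 to 3108 lower genes under A-485, and 35 to 105 higher and 648 to 856 lower genes in the difference. Same-numbered zygote and early 2-cell libraries of a treatment did not deviate together (correlations of 0.0175 under A-485 and -0.0321 in DMSO). Same-numbered A-485 and DMSO libraries were not compared in this way, so whether replicate numbers pair the treatments is not known. The replicate block gave 4511 calls in place of 4463 and 1130 in place of 921. It gave 125 higher genes in the difference, as did the fit with no filter beyond 1 count. In these fits edgeR took nearly all of the spread from the trend over genes (prior degrees of freedom of 800 or infinite, against 10.3 and 15.9), so their p-values are not given. Of 240 values of named genes under A-485, 235 kept direction and call and 5, all of Snora73a, lost the call. Of 336 values of the difference, 312 kept both, 15 no longer passed an adjusted p of 0.05 (Malat1, Cphx1, Pwp2 and Mt2) and 9 newly passed it. No direction was reversed. DESeq2 called 4059 of the 4463 genes and 875 of the 921 the same way. The peak lists hold no depth, which limits what a missing peak means.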

Other observations

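Subunits of the Polycomb complexes had open promoters under A-485: of 30, 11 were open at both stages, 10 newly opened and 1, Pcgf1, closed, beside 22.5, 18.4 and 2.15% of all protein-coding genes. Ezh2 and Ezh1, the H3K27 methyltransferases, had a fold enrichment of 8.45 and 7.73 at late 1-cell and 12.6 and 11.2 at early 2-cell. Phc2 (8.75), Phf1 (8.6), Phc1 (8.55) and Cbx2 (8.03) were newly opened, and Phc1 and Cbx2 had no DMSO peak. The RNA of Pcgf1 went from 247 and 232 to 46.3 and 54.6 FPKM under A-485 (log2 fold change -2.24, adjusted p = 1.30e-09 by edgeR), and from 241 and 237 to 66.4 and 51.9 FPKM in DMSO, where its promoter was open at both stages. Of the 30 subunits, 2 were higher (6.67%) and 5 lower (16.7%) in RNA under A-485, close to the 6.85 and 15.6% of all genes tested.

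Of 75 mitochondrial ribosomal protein genes, 29 were open at both stages, 23 newly opened and 3 closed (Mrpl27, Mrpl11 and Mrps25, 5.55 to 6.76) under A-485. In RNA, 39 were lower and 1 higher under A-485, and 37 of 74 were lower and 2 higher in DMSO. Of 79 cytoplasmic ribosomal protein genes, 42 were open at both stages, 21 newly opened and 4 closed (Rps3a1, Rps28, Rpl22 and Rpl32, 5.2 to 7.58). Of 31 genes of multicopy 2-cell families, whose reads cannot be assigned to single copies, 1 was open at both stages and 1 newly opened under A-485, beside 3 and 3 in DMSO. In their RNA, 8 of 25 tested were higher under A-485 and 28 of 31 in DMSO. Of 21 factors whose motifs were searched, 11 were open at both stages and 6 newly opened, and in RNA 5 were higher and 3 lower. Among all protein-coding genes under A-485, 22.5% were open at both stages, 18.4% newly opened and 2.15% closed. Of all genes tested in RNA under A-485, 6.85% were higher and 15.6% lower.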
